A study of Mus musculus with 4 samples.

Results

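Amino acid catabolism enzymes of the liver were followed as a set of 9 genes, Tat, Tdo2, Hpd, Hal, Uroc1, Sds, Fah, Hgd and Gulo. A probe set belonged to a gene when the platform annotation gave that gene's symbol and no other. This found 12 probe sets for 8 of the 9 genes, among 18193 genes with a probe set in all. Sds, serine dehydratase, had no such probe set and was not analysed here. Where a gene had several probe sets, the brightest by mean log2 signal over the 4 arrays stood for it. Gulo makes ascorbate and breaks down no amino acid, so it is described apart from the other 7 genes.

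RNA came from whole liver slices of 4 male mice aged 9 months, kept on chow in a specific-pathogen-free facility with no treatment. AB6F1 males (n = 2) had an AJ mother and a B6 father, and B6AF1 males (n = 2) had a B6 mother and an AJ father. Both groups are first-generation hybrids that carry the same mix of autosomes, and all 8 genes lie on autosomes. The labels name no batch, so the cross and any difference in how its mice were handled cannot be told apart.

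Liver is the main site of amino acid breakdown, and several of its enzymes are made almost only by hepatocytes. Tyrosine is taken apart in a chain in which Tat, tyrosine aminotransferase, acts first, followed by Hpd, hydroxyphenylpyruvate dioxygenase, Hgd, homogentisate dioxygenase, and Fah, fumarylacetoacetate hydrolase. Tdo2, tryptophan dioxygenase, opens the kynurenine route of tryptophan, while Hal, histidase, and Uroc1, urocanase, start the breakdown of histidine. Tat and Tdo2 are textbook examples of liver genes induced by glucocorticoids. Gulo, gulonolactone oxidase, carries out the last step of ascorbate synthesis in mice.

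Each array gave a deposited signal for 45101 probe sets on a linear scale, with a trimmed mean of 500 and a median between 67.2 and 78. Differences are given as AB6F1 minus B6AF1 on the log2 scale with limma's moderated standard error (SE), and p-values are adjusted by Benjamini-Hochberg over the 11749 genes tested. The number of arrays limits the precision: with 2 arrays against 2, the smallest exact two-sided permutation p that a gene can reach is 0.333. All 8 genes passed the filter on low signal in both groups. The dimmest, Uroc1, had a signal of at least 2797 on every array against a filter value of 60.9. Albumin (Alb), a defining hepatocyte transcript, had signals from 38514 to 48625.

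Every measured gene of the set had a lower mean in AB6F1 than in B6AF1, with a median log2 difference of -0.24. None passed the limma test (adjusted p from 0.152 to 0.688), where 25 of the 11749 genes, or 0.213%, passed in either direction and 9, or 0.0766%, were lower. The AB6F1 arrays lay below both B6AF1 arrays for 8 of 8 genes, against 18.7% of all genes tested that lay lower in this way and 22.5% that lay higher. Bright probe sets were lower more often, since 34.8% of the 1571 genes at least as bright as Uroc1 also lay lower without overlap, and 66.8% of these had a negative difference. The median log2 difference was 0.02 over all genes tested and -0.08 over those bright genes. The 95% interval of the difference included 0 for 7 of the 8 genes, and at an unadjusted p under 0.05 only Gulo was below the threshold, where 9.72% of all genes reached that level in either direction and 3.88% were lower, or 9.61% of the bright genes.

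**Figure D1:**
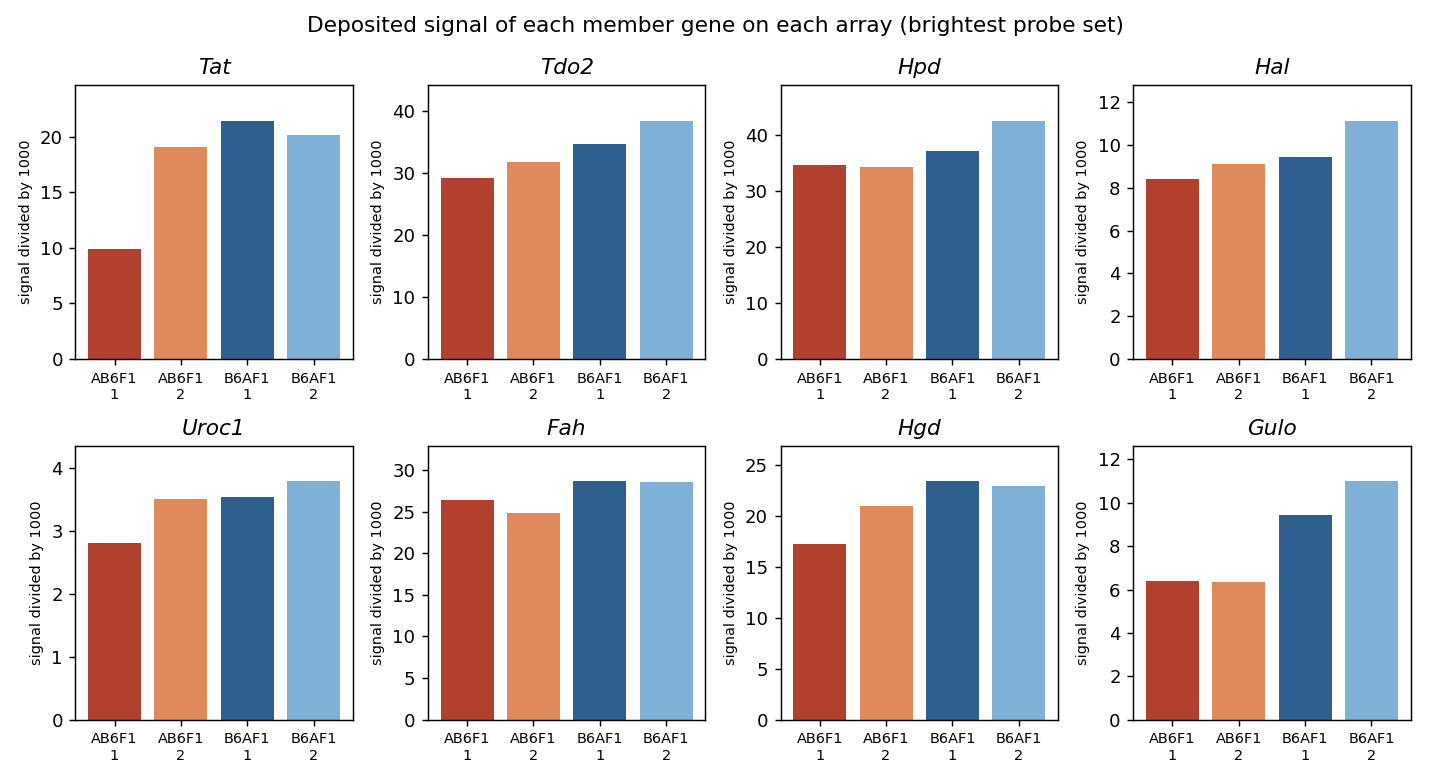
Deposited signal, divided by 1000, on each of the 4 arrays for the brightest probe set of each of the 8 genes, each panel with its own axis from 0; bars are single arrays, red and orange for AB6F1 and blue for B6AF1. Both AB6F1 bars stand below both B6AF1 bars in each panel, by the widest margin in Gulo, and the Tat bar of AB6F1 replicate 1 (9911) stands apart from the other 3 (19077.5 to 21431).

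Tat, which commits tyrosine to breakdown, had signals of 9911 and 19077.5 in AB6F1 against 21431 and 20151 in B6AF1. AB6F1 replicate 1 was low and the other 3 arrays were close together, so the groups did not overlap only by the small gap between AB6F1 replicate 2 and the B6AF1 arrays. The log2 difference was -0.60 ± 0.28 (limma SE; adjusted p = 0.544), a 1.51-fold lower level, with a 95% interval of the log2 difference from -1.25 to 0.06. Without AB6F1 replicate 1 the difference was -0.12 (limma adjusted p = 0.823). Without AB6F1 replicate 2 it was -1.07 (limma adjusted p = 0.00812), which sets the low array alone against the B6AF1 pair. In such a fit the spread comes from the other cross and from the prior over all genes, and the lone array is assumed to vary like them, so this p is not read as a call. No other setting gave an adjusted p under the threshold for any of the 8 genes.

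Hpd, the dioxygenase of the second step, had signals of 34676 and 34365 in AB6F1 against 37227.5 and 42609.5 in B6AF1. The AB6F1 arrays were nearly equal, and the gap to the lower B6AF1 array was smaller than the spread between the B6AF1 arrays. Its log2 difference was -0.21 ± 0.12 (limma SE; adjusted p = 0.634).

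Hgd, which opens the aromatic ring of homogentisate, had signals of 17249.6 and 20892.5 in AB6F1 against 23346 and 22941 in B6AF1. Here too AB6F1 replicate 1 was the lowest array, and the B6AF1 arrays were close together. The log2 difference was -0.29 ± 0.13 (limma SE; adjusted p = 0.541). A second, much dimmer probe set of Hgd read 13.3 and 80.0 in AB6F1 against 148.6 and 115.1 in B6AF1, near the low end of the array. Its log2 difference of -2.003 ± 0.858 (limma SE; adjusted p = 0.561 over all probe sets) has a 95% interval from -4.01 to -0.00094, so its size is poorly determined.

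Fah, the last enzyme of the chain, had signals of 26426 and 24857 in AB6F1 against 28609 and 28557 in B6AF1. The B6AF1 arrays were almost identical and both AB6F1 arrays were below them. With a log2 difference of -0.16 ± 0.11 (limma SE; adjusted p = 0.688) it had the smallest difference of the 8 genes. Its 95% interval ran from -0.42 to 0.11.

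Tdo2 was read by 3 probe sets. The brightest gave 29180 and 31714 in AB6F1 against 34595 and 38361.5 in B6AF1, a log2 difference of -0.26 ± 0.12 (limma SE; adjusted p = 0.545). The crosses were separate on this probe set, and the step between them was close in size to the steps within each cross. The other probe sets read the same direction with a wider gap. The second brightest gave 7722 and 8972 in AB6F1 against 11672 and 12614 in B6AF1, a log2 difference of -0.54 ± 0.13 (SE). The third gave 6406.5 and 7684 against 10271 and 10483, a log2 difference of -0.56 ± 0.13 (SE). When all 22519 probe sets above the filter were tested separately, these had limma adjusted p of 0.282 and 0.268 and unadjusted p of 0.00362 and 0.00332, against 0.0757 for the brightest. Whether the probe sets differ from each other was not tested.

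Hal, which removes ammonia from histidine, had signals of 8395 and 9127 in AB6F1 against 9414 and 11131 in B6AF1. The highest AB6F1 array was only just below the lowest B6AF1 array. Its log2 difference was -0.23 ± 0.13 (limma SE; adjusted p = 0.624). Uroc1, the next enzyme of the route, had signals of 2797 and 3498.5 in AB6F1 against 3531 and 3780 in B6AF1 on its brighter probe set. AB6F1 replicate 1 was low, and AB6F1 replicate 2 was almost level with B6AF1 replicate 1. The log2 difference was -0.22 ± 0.14 (limma SE; adjusted p = 0.658), or -0.06 without AB6F1 replicate 1. The other Uroc1 probe set pointed the opposite way, at 2287.5 and 2502.6 in AB6F1 against 2393 and 2079.5 in B6AF1, with a log2 difference of 0.10 ± 0.14 (limma SE; adjusted p = 0.867 over all probe sets). Its arrays overlapped, and it was the only one of the 12 probe sets with a positive difference.

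Gulo, the ascorbate enzyme, showed the largest difference of the 8 genes on the probe sets that stand for them. Its signals were 6409 and 6362 in AB6F1, which were nearly equal, against 9414 and 10983.5 in B6AF1. The gap between the crosses was wider than the spread within either cross. The log2 difference was -0.67 ± 0.12 (SE), a 1.59-fold lower level with a 95% interval from 1.30-fold to 1.95-fold lower. Its unadjusted p was 0.000975, and it did not pass over all genes (limma adjusted p = 0.152). With each array left out in turn its log2 difference ran from -0.78 to -0.56, a narrower range than that of Tat. The other 7 genes had a median log2 difference of -0.23.

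**Figure D2:**
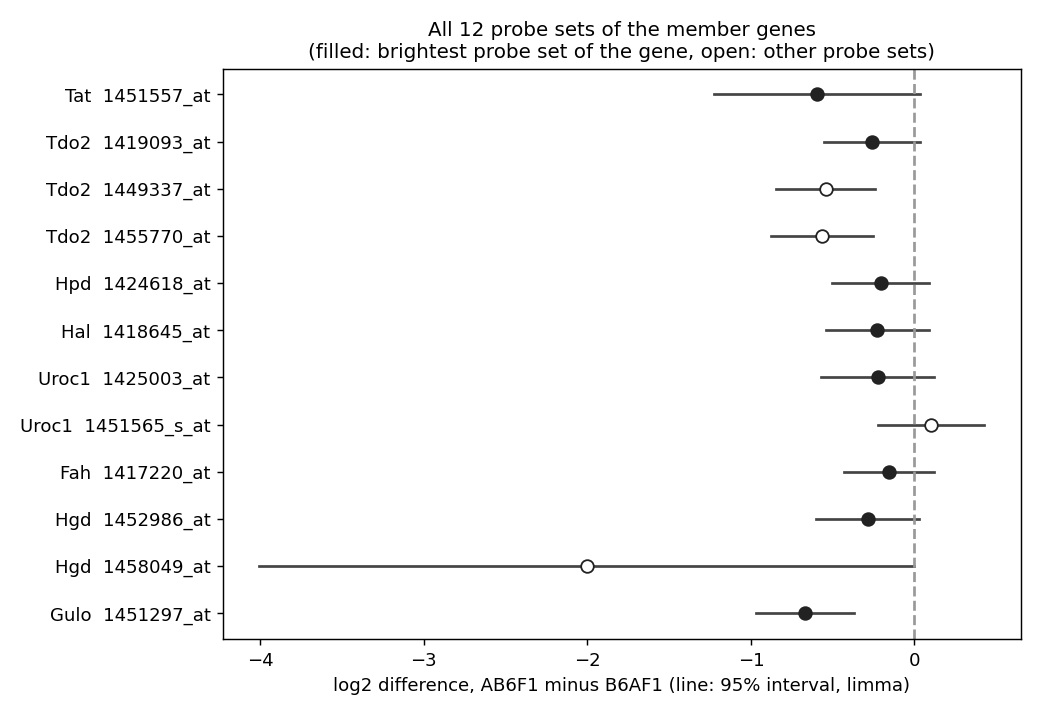
Log2 difference, AB6F1 minus B6AF1, of each of the 12 probe sets on the horizontal axis, with limma's 95% interval as a line; filled points are the probe sets that stand for their gene and open points the others. The intervals of Gulo and of the 2 dimmer Tdo2 probe sets lie clearly below 0, the dim Hgd probe set has by far the widest interval, and the second Uroc1 probe set is the only point above 0 (0.10).

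The arrays were also compared gene by gene for likeness of pattern, as the root mean square distance between log2 signals centred over the 4 arrays. This is a description over 4 arrays and the genes share those arrays. The centred signals were not scaled, so genes with small differences can lie close for that reason alone. Among the 8 genes, Tdo2 and Hal were closest (0.037), followed by Hpd and Hal (0.051) and by Uroc1 and Hgd (0.056). Among all genes tested, those nearest to Tat were Cry1 and Gna14 (0.048 and 0.064), and those nearest to Gulo were Megf11 and Paxx (0.036 and 0.037). For the other 6 genes the nearest neighbours lay within 0.004 to 0.014: Tex264 and Prpf6 for Tdo2, Eif3i and Masp2 for Hpd, Phlpp1 and S1pr1 for Hal, Sult1d1 and Dbt for Uroc1, Nr3c1 and Nol7 for Fah, and Akr1c14 and Nop9 for Hgd.

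Promoter windows are shown for Tdo2 and Hal, the pair with the smallest distance, and for Tat, whose AB6F1 arrays were the least alike. They are the 250 bases before the start site in RefSeq, assembly GRCm38.p6, read 5′ to 3′ on the gene's strand: chr3:81975729-81975978 on the minus strand for Tdo2, chr10:93488518-93488767 on the plus strand for Hal and chr8:109990186-109990435 on the plus strand for Tat. Capitals mark matches to the motifs named after them.
Tdo2: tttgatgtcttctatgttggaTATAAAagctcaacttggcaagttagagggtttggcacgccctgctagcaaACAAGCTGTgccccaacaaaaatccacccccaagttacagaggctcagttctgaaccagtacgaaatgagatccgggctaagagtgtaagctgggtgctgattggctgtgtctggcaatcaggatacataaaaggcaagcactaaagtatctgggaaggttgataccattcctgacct
Hal: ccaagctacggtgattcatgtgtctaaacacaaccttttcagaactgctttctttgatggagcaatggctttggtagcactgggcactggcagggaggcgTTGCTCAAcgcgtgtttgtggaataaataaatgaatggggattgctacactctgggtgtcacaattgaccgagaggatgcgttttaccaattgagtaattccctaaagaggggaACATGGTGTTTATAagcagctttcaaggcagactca
Tat: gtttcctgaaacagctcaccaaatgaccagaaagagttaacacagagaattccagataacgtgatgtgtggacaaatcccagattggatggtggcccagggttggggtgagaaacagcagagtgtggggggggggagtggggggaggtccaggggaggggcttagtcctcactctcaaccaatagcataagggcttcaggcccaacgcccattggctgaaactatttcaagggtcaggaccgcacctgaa
Windows were found for 7 of the 8 measured genes. Both strands were searched for TATAAA (the core promoter box), TGACG (part of the cyclic AMP element), TTGCNNAA (C/EBP), GTTAAT (HNF1, part of its site), TGTTTAC (FOXA), CAAAGTC (HNF4) and ACANNNTGT (glucocorticoid receptor). The receptor motif was found in Tdo2, from base 178 to base 170 before the start site, and in Hal, from base 36 to base 28, against 5.84% of the 32851 windows in the table. In Hal its last base is also the first of a TATAAA match on the opposite strand. The C/EBP motif was found in Hal and Hgd, against 9.56% of windows, and TATAAA in Tdo2, Hal and Hgd, against 12.4%. The TATAAA match ran from base 229 to base 224 before the start site in Tdo2. It ran from base 139 to base 134 in Hgd and, nearest to the start site, from base 28 to base 23 in Hal. The other 4 motifs, held by 3.17% to 17.8% of windows, had no match in the 7 windows, and the Tat, Hpd, Uroc1 and Fah windows held no match to any of the 7. A match is a description of the letters and not evidence of binding.

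Other enzymes of amino acid breakdown leaned the same way, again with none past the test. Of 63 tested genes in 7 lists of breakdown routes, 53 had a negative difference, where 46.5% of all genes tested and 66.8% of the bright genes did. None passed over all genes (smallest limma adjusted p = 0.208), and 15 were lower at an unadjusted p under 0.05, where 3.88% of all genes and 9.61% of the bright genes were. No gene was higher at that level. The AB6F1 arrays lay below both B6AF1 arrays for 33 of the 63 genes, where 18.7% of all genes and 34.8% of the bright genes did so, and above both for 1, where 22.5% of all genes did so. The median log2 difference was -0.17, and with an array left out it ran from -0.26 (without B6AF1 replicate 1) to -0.10 (without AB6F1 replicate 1). The count of 15 was 4 without the intensity trend in limma.

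The tryptophan and kynurenine list holds Ido2, a dioxygenase of the same first step as Tdo2, and enzymes that act after it. Of its 9 tested genes 7 were lower, and these 7 lay below both B6AF1 arrays, as did 18.7% of all genes and 34.8% of the bright genes. The median log2 difference was -0.39, or -0.11 without AB6F1 replicate 1. Kyat1, a kynurenine aminotransferase, had signals of 878.6 and 972.3 in AB6F1 against 1870.4 and 1422.4 in B6AF1, a log2 difference of -0.82 ± 0.17 (limma SE; adjusted p = 0.208). Its probe set has the suffix _x_at and can bind related transcripts. Afmid, the formamidase that acts directly after Tdo2, had signals of 4548.5 and 5114 against 6492 and 7228, a log2 difference of -0.51 ± 0.13 (limma SE; adjusted p = 0.284). In Afmid the gap between the crosses was wider than the spread within either, and in Kyat1 it was about as wide as the gap between the B6AF1 arrays.

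In the phenylalanine and tyrosine list, all 5 tested genes were lower, with a median of -0.15, which was -0.07 without AB6F1 replicate 1, -0.06 without B6AF1 replicate 2, -0.26 without AB6F1 replicate 2 and -0.23 without B6AF1 replicate 1. Got1, the cytosolic aspartate aminotransferase, showed the same uneven AB6F1 pair as Tat, with signals of 3274 and 5715 against 6629 and 6816 in B6AF1. Its log2 difference was -0.64 ± 0.24 (limma SE; adjusted p = 0.472). Gch1, which starts the synthesis of the cofactor of phenylalanine hydroxylase, was at -0.48 ± 0.18 (limma SE; adjusted p = 0.474), with AB6F1 replicate 2 the lowest array.

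Of the histidine and folate-linked list, 4 genes were tested and all 4 were slightly lower, with a median of -0.13, or -0.06 without B6AF1 replicate 2. Aldh1l1 and Ftcd, enzymes that handle the one-carbon units of the route, were at -0.17 ± 0.11 and -0.18 ± 0.13 (log2 difference, SE; limma adjusted p = 0.665 and 0.688). No member of that list reached an unadjusted p under 0.05.

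Methionine and cysteine breakdown was lower in all 10 tested genes, with a median of -0.29. Cth, cystathionine gamma-lyase, had signals of 14246 and 23316 in AB6F1 against 28894.5 and 31066 in B6AF1, and Csad, which leads from cysteine to taurine, had 3799 and 2888 against 8111 and 4609. Their log2 differences were -0.72 ± 0.22 and -0.88 ± 0.27 (limma SE; adjusted p = 0.384 for each). AB6F1 replicate 1 was the lowest array for Cth and AB6F1 replicate 2 for Csad.

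The serine, glycine and threonine list had 6 of 8 genes lower and a median of -0.27, which was -0.13 without B6AF1 replicate 2 and -0.16 without AB6F1 replicate 1. Pipox, the peroxisomal oxidase of sarcosine and pipecolate, was at -0.47 ± 0.12 (log2 difference, SE; limma adjusted p = 0.283), and Shmt2, the mitochondrial serine hydroxymethyltransferase, at -0.28 ± 0.11 (adjusted p = 0.486). Branched-chain breakdown had 12 of 16 lower and a median of -0.14, or -0.06 when AB6F1 replicate 1 was left out and -0.08 when B6AF1 replicate 2 was, with Acad8 at -0.39 ± 0.16 (adjusted p = 0.492) and Ivd, which acts on leucine, at -0.54 ± 0.23 (adjusted p = 0.520). The signals of Ivd were 2251 and 3792 in AB6F1 against 4068 and 4461.5 in B6AF1, so AB6F1 replicate 1 was again far below the rest. Lysine, proline, glutamate and alanine breakdown had 9 of 11 lower and a median of -0.17. That median was -0.05 without AB6F1 replicate 1, -0.05 without B6AF1 replicate 2, -0.26 without AB6F1 replicate 2 and -0.29 without B6AF1 replicate 1. Prodh, proline dehydrogenase, was at -0.39 ± 0.12 (adjusted p = 0.384) and Aldh7a1, of lysine breakdown, at -0.27 ± 0.12 (adjusted p = 0.544).

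The lowest of the 4 arrays was AB6F1 replicate 1 for 5 of the 8 measured genes of the set, all but Hpd, Fah and Gulo, and for 43 of the 63 other breakdown genes. The same array was lowest for 24.7% of all genes tested and for 38.4% of the bright genes. It was lowest for 0 of 8 tested hepatocyte markers. AB6F1 replicate 2 was the lowest array for all of these markers except Apob, which was lowest on B6AF1 replicate 1. On AB6F1 replicate 1 the summed signal of the 8 genes of the set was 135043, against 149894.5 in AB6F1 replicate 2 and 167567 and 178514 in B6AF1. A summed signal weights bright genes most.

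**Figure D3:**
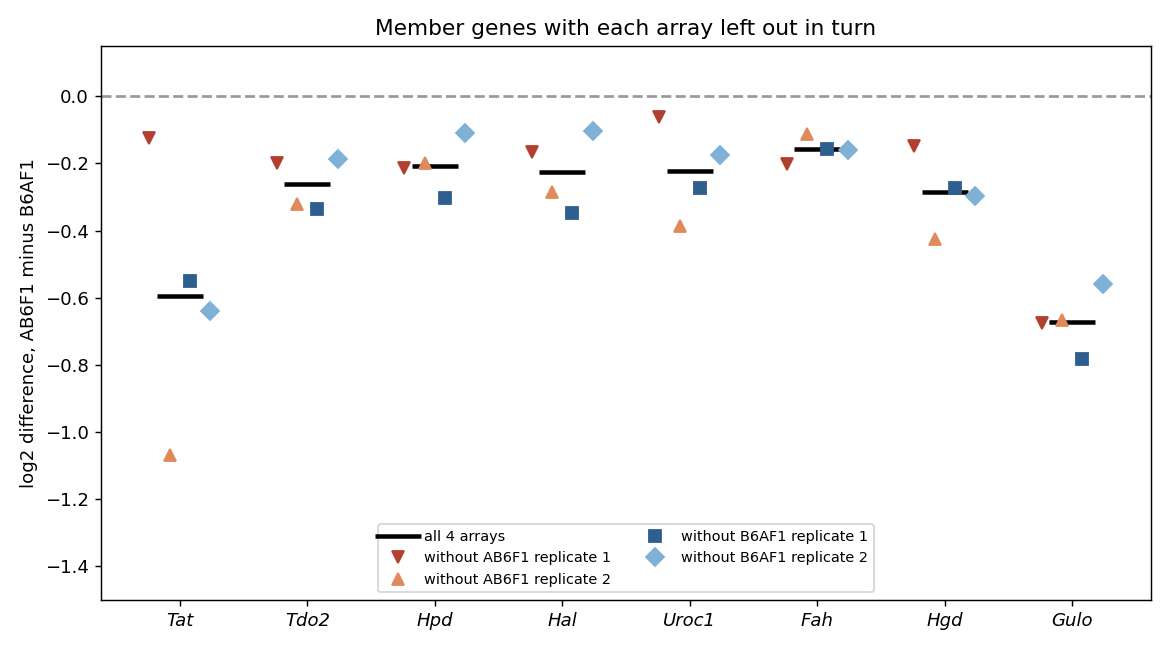
Log2 difference of the 8 genes with all 4 arrays (black bars) and with each array left out in turn (symbols by array), AB6F1 minus B6AF1. Every symbol lies below 0; Tat runs from -1.07 to -0.12 depending on which AB6F1 array is left out, whereas Gulo stays between -0.78 and -0.56.

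Around Gulo, the ascorbate genes showed no common direction. Of 6 tested genes of ascorbate synthesis and transport, 3 were lower and 3 higher, with a median of 0.02, or -0.06 and -0.05 without B6AF1 replicate 1 or 2. Rgn, regucalcin, the lactonase that supplies the substrate of Gulo, had signals of 30128 and 30483 in AB6F1 against 32145 and 34350.4 in B6AF1. Its log2 difference was -0.13 ± 0.11 (limma SE; adjusted p = 0.745). Ugp2, which makes UDP-glucose, was at -0.23 ± 0.18 (adjusted p = 0.710). The differences between Gulo and these genes were not tested.

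Gulo is known as a pericentral gene, and Hal and Uroc1 are known as periportal. Of 13 other pericentral genes tested, 11 were lower, with a median of -0.27, and 1 passed: Cyp1a2, a xenobiotic cytochrome, fell from 20484 and 22375 in B6AF1 to 10673.5 and 10527 in AB6F1 (log2 difference -1.01 ± 0.11, SE; limma adjusted p = 0.0262). Cyp27a1, the sterol hydroxylase, was at -0.78 ± 0.11 (adjusted p = 0.0620). The 2 pericentral genes that were higher were Rhbg, at 0.89 ± 0.32, and Glul, at 0.45 ± 0.29 (limma SE, adjusted p = 0.451 and 0.658). Of all genes tested, 46.5% had a negative difference and 0.0766% passed as lower. Of 11 other periportal genes, 8 were lower, with a median of -0.16 (-0.10 without B6AF1 replicate 2) and none past the test. Asl and Cps1, of the urea cycle, were at -0.63 ± 0.20 and -0.33 ± 0.12 (log2 difference, SE; adjusted p = 0.401 and 0.463). The 3 periportal genes that were higher were Ctsc, Apoa4 and Hsd17b13. Their log2 differences were 0.57 ± 0.23, 0.51 ± 0.30 and 0.28 ± 0.14 (limma SE, adjusted p = 0.501, 0.635 and 0.581).

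Genes of the hormone response that drives Tat and Tdo2 in textbook accounts lay on both sides of 0. Of 13 tested glucocorticoid, glucagon and fasting genes, 7 were higher and 6 lower, with a median of 0.15, which was -0.11 without AB6F1 replicate 2, -0.04 without AB6F1 replicate 1, and 0.03 and 0.04 without B6AF1 replicate 1 or 2. The glucocorticoid receptor gene Nr3c1 was at -0.15 ± 0.12 (log2 difference, SE; limma adjusted p = 0.718). Mt2, a metallothionein, had signals of 5413 and 1632.4 in AB6F1 against 227.5 and 863.2 in B6AF1, and Sgk1, a kinase, had 654.6 and 712.7 against 512.8 and 484.9. Their log2 differences were 2.75 ± 0.71 and 0.45 ± 0.16 (limma SE; adjusted p = 0.309 and 0.445). Of 8 hepatocyte transcription factors, 5 were higher and 3 lower, with a median of 0.08, which was -0.23 without AB6F1 replicate 1, -0.11 without B6AF1 replicate 2 and 0.16 without AB6F1 replicate 2. Nr5a2 was at -0.41 ± 0.12 and Cebpa at 0.15 ± 0.11 (limma SE; adjusted p = 0.384 and 0.698).

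**Figure D4:**
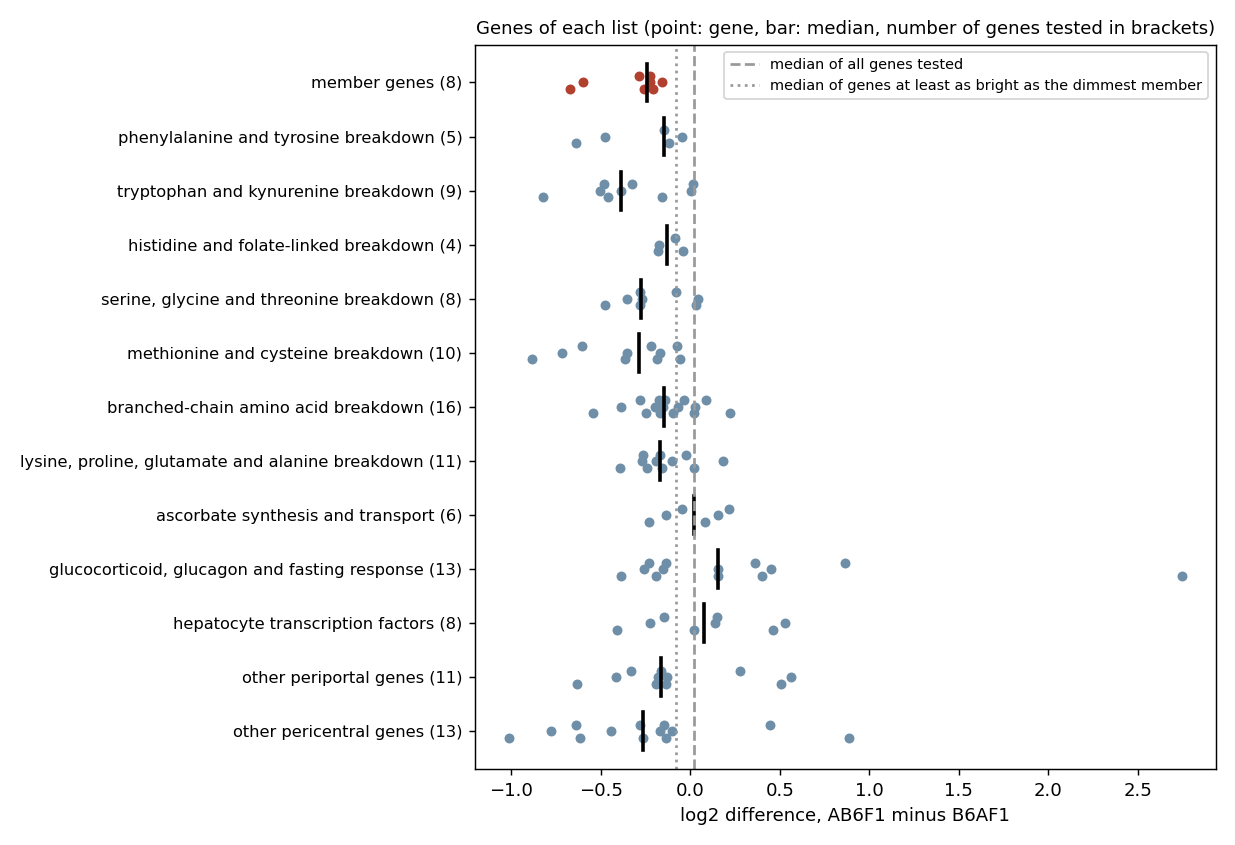
Log2 difference, AB6F1 minus B6AF1, of every tested gene (points) in the measured set (red) and in 12 lists of related genes (blue), with black bars at each list's median; the dashed and dotted lines are the medians of all genes tested (0.02) and of the bright genes (-0.08). The medians of all 7 breakdown lists, of both zone lists and of the set lie below both lines, while the ascorbate, hormone response and transcription factor lists lie at or near the dashed line or above it.

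Because whole liver was used, fewer hepatocytes and less RNA per hepatocyte cannot be told apart. Hepatocyte markers differed little, with 7 of 8 lower, a median of -0.08 and a log2 difference for albumin of -0.16 ± 0.13 (limma SE; adjusted p = 0.738). Their summed signal was 312500 and 277893 in AB6F1 against 291880.4 and 339087 in B6AF1, so the crosses overlapped. All 10 tested macrophage markers were higher, 7 of them at an unadjusted p under 0.05, where 5.84% of all genes were higher at that level. None of these markers passed the test. The summed signal of the macrophage markers was 17338 and 10868 in AB6F1 against 7201 and 10059 in B6AF1. Of 9 stellate cell markers 8 were higher, and Col3a1 and Col1a2 passed (limma adjusted p = 0.00931 and 0.0402), where 0.136% of all genes passed as higher. The summed signal of the stellate cell markers was 14112 and 17144 against 10837 and 10316.5. The lowest signal on any array was 10906 for a hepatocyte marker, 90.4 for a macrophage marker and 16.7 for a stellate cell marker, against a filter value of 60.9. The part of these cells in the differences of the amino acid enzymes was not tested.

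Of 7 endothelial markers 5 were higher, with summed signals of 3922 and 3332 in AB6F1 against 2851 and 3932 in B6AF1. Lymphocyte markers (2 of 4 higher) summed to 1008 and 615.7 against 475.9 and 621.5, and neutrophil markers (3 of 4 higher) to 1315 and 412.8 against 418.5 and 253.0. In AB6F1 replicate 1, the array on which Tat was lowest, the macrophage and neutrophil sums were the highest of the 4 arrays. The lymphocyte sum was also highest there, but most of it was Ptprc, at 731.6. Cd3e was highest on that array too (133.8). Cd8a was highest on B6AF1 replicate 2 (111.5) and Cd79a on B6AF1 replicate 1 (87.6). The 2 lymphocyte markers that were lower, Cd8a and Cd79a, lay below both B6AF1 arrays on both AB6F1 arrays. This was so for 18.7% of all genes tested. Cd8a had signals of 68.5 and 26.7 in AB6F1 against 69.7 and 111.5 in B6AF1. Cd79a had 74.2 and 46.7 against 87.6 and 74.5. Both genes were dim, with AB6F1 replicate 2 under the filter value, and the crosses were only just separate (log2 difference -1.04 and -0.46, limma adjusted p = 0.665 and 0.818). Cholangiocyte markers, 3 of 3 higher, summed to at most 351.1 on any array, and the 1 tested erythroid marker, Alas2, was at 0.03 ± 0.22 (log2 difference, SE; limma adjusted p = 0.979). None of the markers in this paragraph passed the test.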

How the data were processed

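Per the labels' protocols, total RNA was taken up in Trizol and labelled with biotin as cRNA for Affymetrix arrays. The deposited intensity values are MAS5 signals on a linear scale, which the submitters' processing notes name with no version; the sources used here name no genome build. From the values, each array had been scaled to a trimmed mean of 500 (2% dropped at each end), which hides a change common to every transcript, and no detection calls were used. Of 45101 probe sets, 64 were controls, 34945 had 1 gene symbol, 932 several and 9160 none. Symbols were updated by gene identifier through RefSeq (GRCm38.p6) for 34741.

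Each gene was read by its brightest probe set. The filter dropped genes with a mean log2 signal under the median probe set, which kept 11749. Log2 signals, with no pseudocount, were tested with limma 3.58.1 in R 4.3.3 (lmFit, eBayes with an intensity trend), two-sided, with a threshold of 0.05 on the Benjamini-Hochberg adjusted p. Residual degrees of freedom were 2, with 4.97 more from the prior. The fit was tested on simulated data. The genes named are all genes of the set with every probe set, genes past the test and up to 2 of smallest p in each list, Alb, and the 2 nearest genes by pattern. Nr3c1, Rhbg, Glul, Ctsc, Hsd17b13, Apoa4, Ass1, Apob, Cd79a and Cd3e fall outside this rule in their own lists and were named there after their values were seen. The members and lists were chosen with earlier results of these data known, and no set test was run. Alternatives are given in the closing section.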

Additional observations from a re-analysis of the deposited data

How the results depend on the processing

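Each of the 8 genes kept a negative difference under all 15 alternatives, but most of these could not change its sign. Changes of the filter, the probe set choice, the limma settings or the block left each difference as it was. Both AB6F1 arrays lay below both B6AF1 arrays for each gene, so leaving out an array or adding 16 to every signal could not reverse it. Only quantile normalization, median centring and cyclic loess could have done so. Outside the fits with an array left out, no gene of the set passed the threshold. Each fit with an array left out has 1 array in one cross, which is assumed to vary like the pair of the other, so neither its p-values nor its counts bear on stability. Median centring of the arrays moved the median of all genes from 0.02 to -0.11 and that of the set to -0.38. It shifts every gene by the same amount, so it could not change the set's place among all genes. Over the 14 alternatives run for it, the set's median ran from -0.38 to -0.17, the latter with cyclic loess. With each array left out in turn, log2 differences ran from -1.07 to -0.12 for Tat, -0.33 to -0.19 for Tdo2, -0.30 to -0.11 for Hpd, -0.35 to -0.10 for Hal, -0.39 to -0.06 for Uroc1, -0.20 to -0.11 for Fah, -0.42 to -0.15 for Hgd and -0.78 to -0.56 for Gulo. The smallest adjusted p of Gulo over the alternatives was 0.0662 and the largest 0.859.

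The count of 25 genes past the test was 49 after median centring, 0 without the intensity trend (1044 genes at an unadjusted p under 0.05) and from 1 (without either B6AF1 array) to 242 (without AB6F1 replicate 2) with an array left out, 79 without AB6F1 replicate 1. With the replicate number as a block it was 62, and no gene of the set changed its call. The deviations of same-numbered arrays had a correlation of -0.027 across genes, so the numbers were not taken to pair the mice. The causes of these changes were not tested. Of 196 list medians under the alternatives, 181 moved by less than the spread between replicates. The fits without the intensity trend, with robust eBayes or with the replicate block could not move a median and are counted among the 181. The medians of the breakdown lists were negative under every alternative run for them, and those fits could not change a sign there either. Those of the ascorbate, hormone response and transcription factor lists changed sign under 3, 2 and 3 of 14. Signals under the filter value of 60.9 were seen on some arrays for the dim Hgd probe set and for some markers of other cell types, which limits those values.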
